A study of Mus musculus with 14 samples.

Results

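The subunits of the oxidative phosphorylation system were followed in RNA of the layer dissected from the surface of the mouse heart, the epicardium with the subepicardium. Members were the genes of the deposited table whose symbols start with the names of subunits of complexes I to V, without the assembly factors that begin with Ndufaf or Sdhaf. By this choice of names 98 of the 15894 listed genes were members, of which 86 are encoded in the nucleus and 12 in the mitochondrial genome. Complex I was represented by 41 nuclear and 7 mitochondrial members, complex II by 4 nuclear members and complex III by 8 nuclear members. Complex IV had 16 nuclear and 3 mitochondrial members, and complex V had 17 and 2. The table names the mitochondrial subunit of complex III mt-Cytb, which the letters of the choice do not match, so its values are given beside the members and enter no count.

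RNA came from hearts at E16.5, and each library held the layer of a pair of hearts of one sex pooled together. The female libraries were 3 dorsal and 3 ventral, numbered 1 to 3 on each side, and the male libraries were 3 dorsal (4 to 6) and 4 ventral (4 to 7). A last male library carries the number 7 and conflicting labels, dorsal by title and source, ventral by tissue, so it stayed out of the comparisons. According to the sample labels the genotype was Tbx18Cre in all groups, and no treatment was given, whereas the paper names the hearts wild type. Tbx18Cre is a Cre allele at Tbx18, a gene of the epicardium and its derivatives. Sex and the separate numbering of the libraries cannot be told apart, and which sex entered the regional comparison of the paper is not given there. The design asks how expression differs between the ventral and the dorsal side of the heart, and between male and female hearts.

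Oxidative phosphorylation passes electrons from NADH, through complex I, and from succinate, through complex II, to complex III and then to complex IV, which reduces oxygen. Complexes I, III and IV pump protons across the inner mitochondrial membrane, and complex V, the ATP synthase, uses the gradient to make ATP. All subunits of complex II are nuclear genes, whereas the other complexes also need subunits made inside the mitochondrion. Cardiomyocytes are among the cells richest in mitochondria, and their content of these complexes increases as the heart matures.

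The labelled tissue was checked against marker genes. The 10 epicardial markers, Wt1, Tbx18 and Upk3b among them, were all listed, and their summed level was 378 to 687 normalized CPM in female dorsal, 1864 to 2988 in female ventral, 1730 to 4788 in male dorsal and 2233 to 6463 in male ventral libraries. Normalized CPM is the read count of a gene scaled to a common library size by the authors. The 10 markers of ventricular cardiomyocytes, such as Tnnt2, Myh7 and Actc1, added up to 17489 to 47493 normalized CPM, more than the epicardial markers in each of the 14 libraries. In the regional comparison of females 9 of the 10 epicardial markers and 6 of 8 fibroblast markers were called higher ventrally, as were 5 of 6 macrophage and 3 of 6 lymphatic endothelial markers, and 2 of the 10 cardiomyocyte markers were higher and none lower, against 14.5% of all genes higher and 13.3% lower. Female dorsal library 1 stood apart with 12455 normalized CPM on the 4 listed atrial markers, against 474 to 1992 in the other libraries. Reads on the listed genes numbered 13918995 to 25221314 per library.

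Several members share sequence with another gene, which bears on their values. Of the windows of 60 bases, the read length, 97.9% to 100% were shared with another annotated gene for mt-Co2, mt-Atp6, mt-Co3, mt-Nd3 and mt-Nd4l, 61.9% for mt-Nd4 and 46.5% for mt-Co1. Ndufb4c, annotated as a processed pseudogene, shared 100% with another gene, and the pseudogene Ndufs5-ps shared 67.7%. The sharing was 38.1% for Atp5o and 37.3% for Atp5g2. Within the mitochondrial genome of GRCm38, mt-Atp8 and mt-Atp6 overlap by 43 bases (M, 7927 to 7969), and mt-Nd5 and mt-Nd6 overlap by 14 bases on opposite strands (M, 13552 to 13565). The kit named in the labels does not mark the strand, so reads from the strand opposite to mt-Nd6 cannot be told from those of mt-Nd6. The overlap of both ATP synthase genes is shown because a read inside it belongs to either subunit. Capitals mark the shared bases on the plus strand, with chrM:7887-7969 for the end of mt-Atp8 and chrM:7927-8009 for the start of mt-Atp6, read from the GRCm38 genome.
mt-Atp8: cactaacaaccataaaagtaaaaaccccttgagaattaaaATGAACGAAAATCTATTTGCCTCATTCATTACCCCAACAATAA
mt-Atp6: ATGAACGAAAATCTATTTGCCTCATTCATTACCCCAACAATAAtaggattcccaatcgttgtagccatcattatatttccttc

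Promoter sequences from RefSeq (GRCm38.p6) were matched to 69 of the 86 nuclear members, and the 250 bases before each start were searched on both strands for 3 motifs. The core of the NRF1 motif, TGCGCA, was found in 14 of 69 promoters (20.3%), against 6.66% of 27025 RefSeq promoters. These 27025 are not limited to the 15894 listed genes, from which the members come, so the shares have unlike backgrounds. The ERR letters AAGGTCA were in 5 (7.2%, against 4.05%) and the ETS letters CTTCCGG in 11 (15.9%, against 7.05%). NRF1, the oestrogen-related receptors and the ETS factor GABP are known regulators of respiratory chain genes. The NRF1 letters read the same on either strand, and none of the motifs contains another. A match says only that the letters are present, in the window searched. The stretches shown are those of Sdha and Uqcrfs1, which were called lower ventrally in females, and of Cox6a1, which was not called there. Each stretch ends before the annotated gene. They lie at chr13:74350281-74350490, chr13:30545363-30545566 and chr5:115348982-115349208, all on the minus strand, with motif letters in capitals. The bases nearest the start that are left out hold 1 more TGCGCA for Sdha and 1 CTTCCGG, on either strand, for Cox6a1. Cox6a1 is not an unchanged contrast. In males its ventral values (1171, 1380, 1281 and 783) all lay under the dorsal ones (1404, 1669 and 1479). With the GC and length trend removed, limma called it lower over both sexes (adjusted p = 0.0452).
Sdha: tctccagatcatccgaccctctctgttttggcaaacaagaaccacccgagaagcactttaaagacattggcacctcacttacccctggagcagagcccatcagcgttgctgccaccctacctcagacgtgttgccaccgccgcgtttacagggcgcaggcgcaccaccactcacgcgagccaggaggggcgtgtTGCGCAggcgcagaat
Uqcrfs1: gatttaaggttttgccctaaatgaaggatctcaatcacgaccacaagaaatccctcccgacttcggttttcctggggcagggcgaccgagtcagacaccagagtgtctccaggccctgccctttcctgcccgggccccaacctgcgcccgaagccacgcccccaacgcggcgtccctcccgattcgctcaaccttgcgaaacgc
Cox6a1: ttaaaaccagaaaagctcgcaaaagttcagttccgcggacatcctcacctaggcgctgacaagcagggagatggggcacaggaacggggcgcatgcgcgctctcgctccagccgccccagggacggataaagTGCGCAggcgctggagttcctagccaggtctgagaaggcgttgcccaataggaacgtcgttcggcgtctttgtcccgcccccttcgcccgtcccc

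Levels of different genes were compared per kilobase of transcript, as the mean normalized CPM per kilobase over the 13 libraries of settled region. Among the nuclear members, the median level was 604 for complex I, 522 for complex II, 1362 for complex III, 1164 for complex IV and 1120 for complex V. The highest member of each complex was Ndufa4 (1682), Sdhb (1220), Uqcr11 (2182), Cox6b1 (2702) and Atp5o (2171). Ndufa4 and Cox6b1 encode small subunits found with cytochrome c oxidase, although the choice by name puts Ndufa4 with complex I. The mitochondrial members reached 3509 for mt-Nd1, 7609 for mt-Co2 and 10521 for mt-Atp6, and mt-Cytb stood at 7159. Of the members, only Ndufs5-ps fell under 1 normalized CPM in any of these libraries, in 4 of them, and all 98 entered every test.

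Summed over the members, the nuclear subunits took 3.79% to 7.49% of a library's total and the mitochondrial ones 1.69% to 4.67%. The nuclear sum was 55255, 81675 and 61901 normalized CPM in female dorsal and 63030, 50725 and 52680 in female ventral libraries. It was 72295, 72200 and 71871 in male dorsal and 60829, 61377, 46270 and 37438 in male ventral libraries. In males every ventral library lay under every dorsal one, with a ventral mean 0.714 times the dorsal mean, whereas the female groups overlapped (0.837 times). The mitochondrial sum was 30565, 37786 and 27517 in female dorsal and 47385, 35225 and 35239 in female ventral libraries. The corresponding male values were 35157, 36279 and 24889 dorsally and 43878, 32678, 20681 and 16720 ventrally. Both sexes overlapped here, with a ventral mean 1.23 times the dorsal one in females and 0.887 times in males. As a percentage of the library total the female mitochondrial values were 3.468 to 4.668 ventrally and 2.781 to 3.467 dorsally. These ranges did not overlap, by a narrow margin. The mitochondrial sum leaves out mt-Cytb, at 9318, 10858 and 8024 normalized CPM in female dorsal and 10616, 7087 and 7608 in female ventral libraries. Counting mt-Cytb in would make the female percentages overlap and lessen the ventral excess, so this gap depends on the choice of names. The nuclear sum divided by the mitochondrial sum was 1.33 to 1.50 in female ventral against 1.81 to 2.25 in female dorsal libraries, which did not overlap, and the male ranges of 1.39 to 2.24 and 1.99 to 2.89 did.

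**Figure D1:**
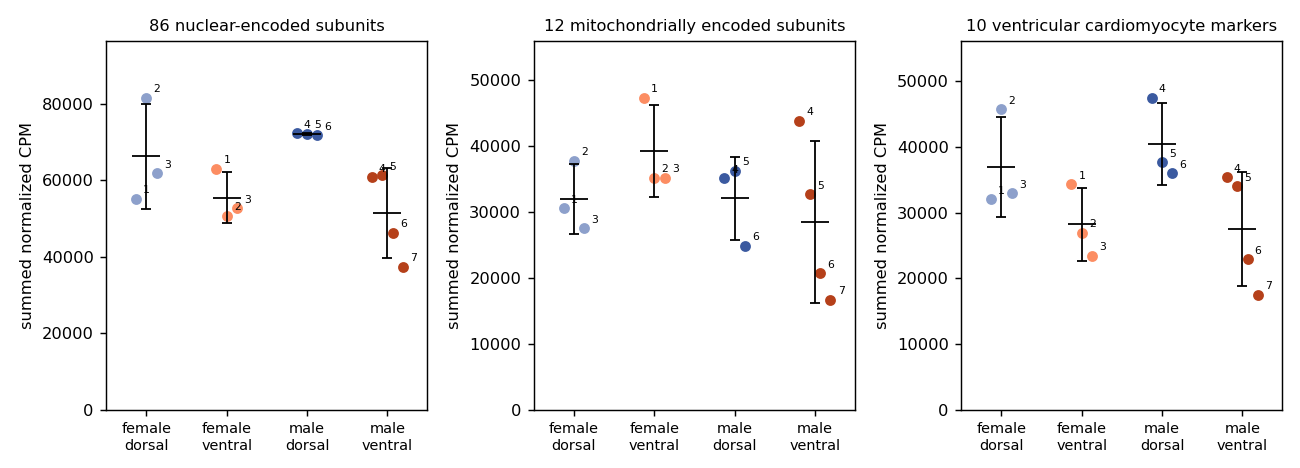
Summed normalized CPM of the 86 nuclear members, the 12 mitochondrial members and the 10 ventricular cardiomyocyte markers, with 1 numbered point per library, the group mean as a line and the SD as a bar (3 libraries a group, 4 in male ventral). Male ventral libraries (37438 to 61377) lie under the male dorsal ones (71871 to 72295) for the nuclear sum, and the mitochondrial sums overlap between regions in both sexes.

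The mean sum over the cardiomyocyte markers was lower ventrally in both sexes, as was the nuclear sum. The mitochondrial sum went the other way in females, with a ventral mean 1.23 times the dorsal one. For the cardiomyocyte markers the ventral mean was 0.765 times the dorsal mean in females, with overlap, and 0.679 times in males, without overlap. The nuclear sum divided by the cardiomyocyte marker sum was 1.72 to 1.88 in female dorsal and 1.84 to 2.25 in female ventral libraries. In males it was 1.52 to 1.996 dorsally and 1.72 to 2.14 ventrally, so these ratios overlapped between regions in both sexes. The epicardial and fibroblast sums were higher ventrally, with ventral means 4.34 and 4.39 times the dorsal means in females and 1.48 and 1.65 times in males. The macrophage and lymphatic endothelial sums were 3.76 and 3.17 times as high ventrally in females, without overlap, and 1.90 and 1.35 times in males, with overlap. The atrial sum was 0.226 times in females, where dorsal library 1 stood apart, and 1.03 times in males. In such bulk samples fewer cells of a type and less RNA per cell cannot be told apart, and the part of the cell types in the results below was not tested.

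In female hearts the largest regional falls among the members were in Ndufs1, Uqcrfs1 and Sdha, while mt-Nd6, mt-Nd2 and mt-Nd3 rose. Changes are given as ventral minus dorsal on the log2 scale of normalized CPM + 1, tested with limma across all genes with Benjamini-Hochberg adjustment, and called under an adjusted p of 0.05. Of the 86 nuclear members, 2 were higher ventrally and 9 lower, which is 12.8%. Over all genes tested 27.8% were called, 14.5% higher and 13.3% lower. The median change of the nuclear members was -0.11, against 0.01 over all genes, with 29 of 86 above 0, against 50.7% of all genes. The groups did not overlap for 14 nuclear members that were lower and 2 that were higher ventrally, against 21.6% and 23.2% of all genes.

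The count of 11 changed with single libraries. It was 2 without dorsal library 2, ventral library 2 or ventral library 3, and 6 without dorsal library 3. Without dorsal library 1, with its high atrial markers, it was 10, and without ventral library 1 it rose to 16. Calls over all genes fell in each of these fits, from 2089 higher and 1918 lower in the main fit. They were 1236 and 1055 without dorsal library 2, 1039 and 1119 without ventral library 2, and 1350 and 1357 without ventral library 3. Without dorsal library 3 they were 1737 and 1453, and without dorsal library 1 they were 1660 and 1566. Without ventral library 1 they were 1952 and 1893. Ndufs1 and Uqcrfs1 stayed called in each of the alternatives run. After adjustment of each library for GC content and transcript length, the median change of the nuclear members was -0.31 and 14 were lower with none higher. Over all genes the median was then -0.05, with 1527 higher and 1904 lower.

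Among the catalytic subunits of complex I, Ndufs1, the largest iron-sulphur subunit of the electron input arm (ENSMUSG00000025968; chromosome 1, 63143596 to 63176833, minus strand), fell most. It measured 542, 791 and 475 normalized CPM in female dorsal and 296, 196 and 252 in female ventral libraries, a change of -1.26 (SE 0.22, adjusted p = 0.00341). The female groups did not overlap, and the same held in males, at 542, 458 and 448 dorsally and 294, 443, 366 and 186 ventrally, where the change was -0.65 (SE 0.26, adjusted p = 0.320). Ndufv1, which carries the flavin that accepts electrons from NADH, changed by -0.80 in females (SE 0.24, adjusted p = 0.0345). Ndufv2, also at the electron path, was lower too (-0.70, adjusted p = 0.0337). Of the 7 nuclear core subunits 4 were lower in females, with a median change of -0.70, against 13.3% of all genes lower. Of the other 34 nuclear members of complex I none was lower and 1, Ndufa4l2, was higher, with a median of -0.05, against 14.5% of all genes higher. These 34 include Ndufa4, Ndufa4l2, the processed pseudogenes Ndufs5-ps and Ndufb4c, and Ndufb1-ps, which is annotated as non-coding. Summed, the core subunits were at 3579, 5374 and 3870 normalized CPM in dorsal and 3313, 2335 and 2582 in ventral female libraries, with no overlap. The other nuclear members of complex I overlapped, at 13692, 19758 and 15282 against 16829, 13903 and 15180.

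Complex II is also the succinate dehydrogenase of the citric acid cycle. In females 3 of its 4 members were lower ventrally, against 13.3% of all genes. Sdha, the flavoprotein that oxidizes succinate (ENSMUSG00000021577; chromosome 13, 74322254 to 74350280, minus strand), measured 1120, 1738 and 1124 in female dorsal and 895, 552 and 582 in female ventral libraries. Its change was -0.98 (SE 0.25, adjusted p = 0.0172), and the groups did not overlap. The membrane anchors Sdhc and Sdhd changed by -0.75 (adjusted p = 0.0314) and -0.74 (adjusted p = 0.0216), and Sdhb, the iron-sulphur subunit, by -0.44 (SE 0.23, adjusted p = 0.184). The sum of the 4 members was 3675, 5816 and 4144 normalized CPM in female dorsal and 3449, 2459 and 2527 in female ventral libraries. It was 4782, 4511 and 4758 in male dorsal and 3157, 3755, 2805 and 2109 in male ventral libraries. The ventral mean was 0.619 times the dorsal one in females and 0.631 times in males, without overlap in either sex. The calls of Sdha and Sdhd were lost without dorsal library 2, ventral library 2 or ventral library 3, and that of Sdhc also without dorsal library 3.

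In complex III 1 of 8 members was called in females, against 27.8% of all genes. That member was Uqcrfs1, the Rieske iron-sulphur protein (ENSMUSG00000038462; chromosome 13, 30540308 to 30545362, minus strand). It measured 738, 1211 and 805 in female dorsal and 500, 353 and 370 in female ventral libraries, a change of -1.15 (SE 0.22, adjusted p = 0.00515). The male libraries did not overlap either, at 953, 844 and 921 against 726, 718, 468 and 443, with a change of -0.66 (SE 0.21, adjusted p = 0.288). Uqcrc1, a core protein of the complex, changed by -0.48 in females (SE 0.27, adjusted p = 0.204). In complex V, Atp5a1, the alpha subunit of the catalytic F1 part, was lower in females (-0.72, SE 0.23, adjusted p = 0.0407), but its adjusted p was 0.0554 once the number of the library was entered as a block. The catalytic beta subunit Atp5b changed by -0.61 (adjusted p = 0.110). No other member of complex V was called in females, where 27.8% of all genes were called.

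In complex IV 1 of 16 nuclear members was called in females, against 27.8% of all genes, with a median change of -0.06, and that member, Cox6b2, was higher ventrally. It is an isoform of Cox6b1 known chiefly from testis (ENSMUSG00000051811; chromosome 7, 4751792 to 4753094, minus strand), and measured 4.78, 9.88 and 12.8 normalized CPM in female dorsal and 14.3, 25.1 and 23.0 in female ventral libraries. The change was 1.15 (SE 0.35, adjusted p = 0.0361), and the groups did not overlap. Ndufa4l2, a paralogue of Ndufa4 that is induced by hypoxia (ENSMUSG00000040280; chromosome 10, 127514967 to 127517154, plus strand), was the other nuclear member higher ventrally. It measured 60.3, 70.8 and 83.2 in female dorsal and 87.4, 113 and 109.7 in female ventral libraries, a change of 0.53 (SE 0.17, adjusted p = 0.0390). Both calls were lost without dorsal library 1 or 2 or ventral library 2 or 3, and also when GC content and length were adjusted for. Cox4i2, the hypoxia-linked isoform of subunit IV, changed by -0.79 (SE 0.27, adjusted p = 0.0545), and its adjusted p was 0.0436 with the replicate block. Cox5a, a subunit at the matrix side, changed by -0.35 (adjusted p = 0.302).

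**Figure D2:**
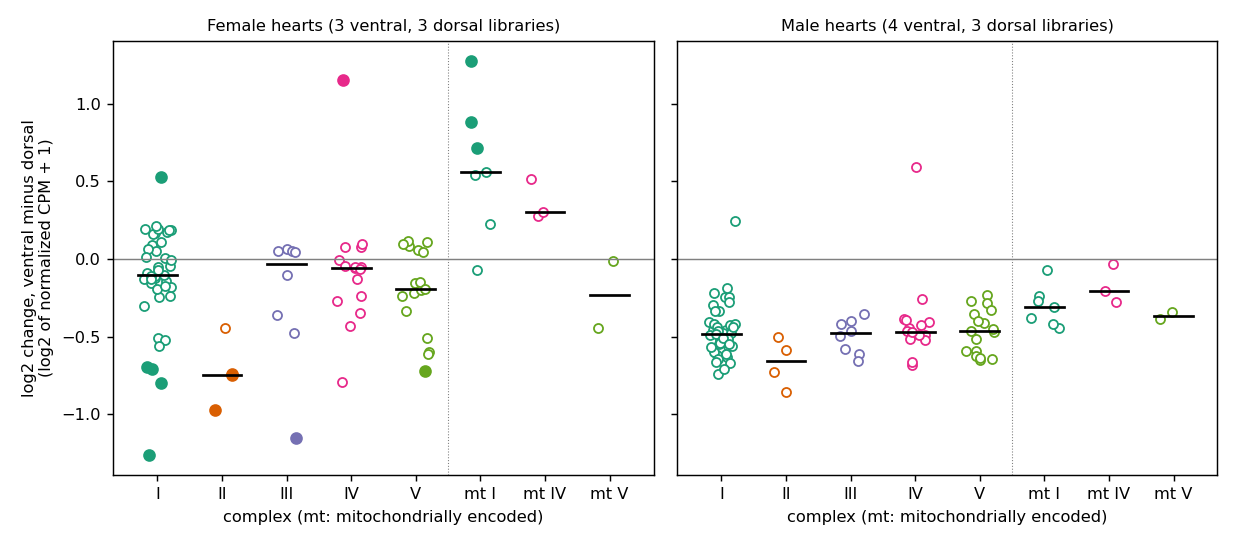
Ventral minus dorsal log2 change of normalized CPM + 1 for each member, by complex and genome, in female (left) and male hearts (right). Each point is a gene, filled where called by limma, and the line is the median of the complex; over all complexes the nuclear medians were -0.11 in females and -0.48 in males, and the mitochondrial ones 0.41 and -0.29.

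Of the mitochondrial members 9 of 12 lay above 0 in females, with a median change of 0.41, against 50.7% of all genes above 0, and 3 (25%) were called, all higher ventrally and all subunits of complex I. Over all genes 27.8% were called and 14.5% were higher, so the share called in either direction was near that of all genes. The groups did not overlap for 5 of the 12, against 23.2% of all genes higher and 21.6% lower without overlap. mt-Nd6, the only member transcribed from the light strand (ENSMUSG00000064368; chromosome M, 13552 to 14070, minus strand), measured 345, 486 and 356 in female dorsal and 1071, 908 and 875 in female ventral libraries. Its change was 1.28 (SE 0.18, adjusted p = 0.00146). mt-Nd2 measured 935, 1220 and 885 dorsally and 2157, 1627 and 1799 ventrally, a change of 0.88 (SE 0.20, adjusted p = 0.0120). For mt-Nd3 the values were 131, 154 and 133 against 276, 209.6 and 207, a change of 0.71 (SE 0.15, adjusted p = 0.00864). The count of 3 called mitochondrial members held without any 1 library, and mt-Nd2 and mt-Nd6 were called in every alternative run, while mt-Nd3 was lost on adjustment for GC content and length.

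The other subunits of complex I in the mitochondrial genome changed by 0.56 (mt-Nd5, adjusted p = 0.0932), 0.54 (mt-Nd4, adjusted p = 0.119), 0.23 (mt-Nd1, adjusted p = 0.527) and -0.07 (mt-Nd4l, adjusted p = 0.853). The catalytic subunits of complex IV changed by 0.51 (mt-Co1, adjusted p = 0.214), 0.28 (mt-Co2, adjusted p = 0.506) and 0.30 (mt-Co3, adjusted p = 0.470). Of complex V, mt-Atp6, which forms the proton path, changed by -0.01 (adjusted p = 0.980) and mt-Atp8 by -0.45 (SE 0.22, adjusted p = 0.165). mt-Atp8 and mt-Atp6 share bases, as shown above, and are made from one transcript. mt-Cytb changed by -0.17 (adjusted p = 0.746). The listed gene Gm29216, a nuclear copy that shares sequence with mt-Co1, rose by 1.39 in females (SE 0.20, adjusted p = 0.00186), from 1057, 1365 and 982 normalized CPM dorsally to 3135, 2833 and 2877 ventrally. Its reads and those of mt-Co1 may not be separable. With quantile normalization the median of the mitochondrial members was 0.10, and after adjustment for GC content and length it was 0.26 with 4 called, mt-Atp8 among them as lower.

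**Figure D3:**
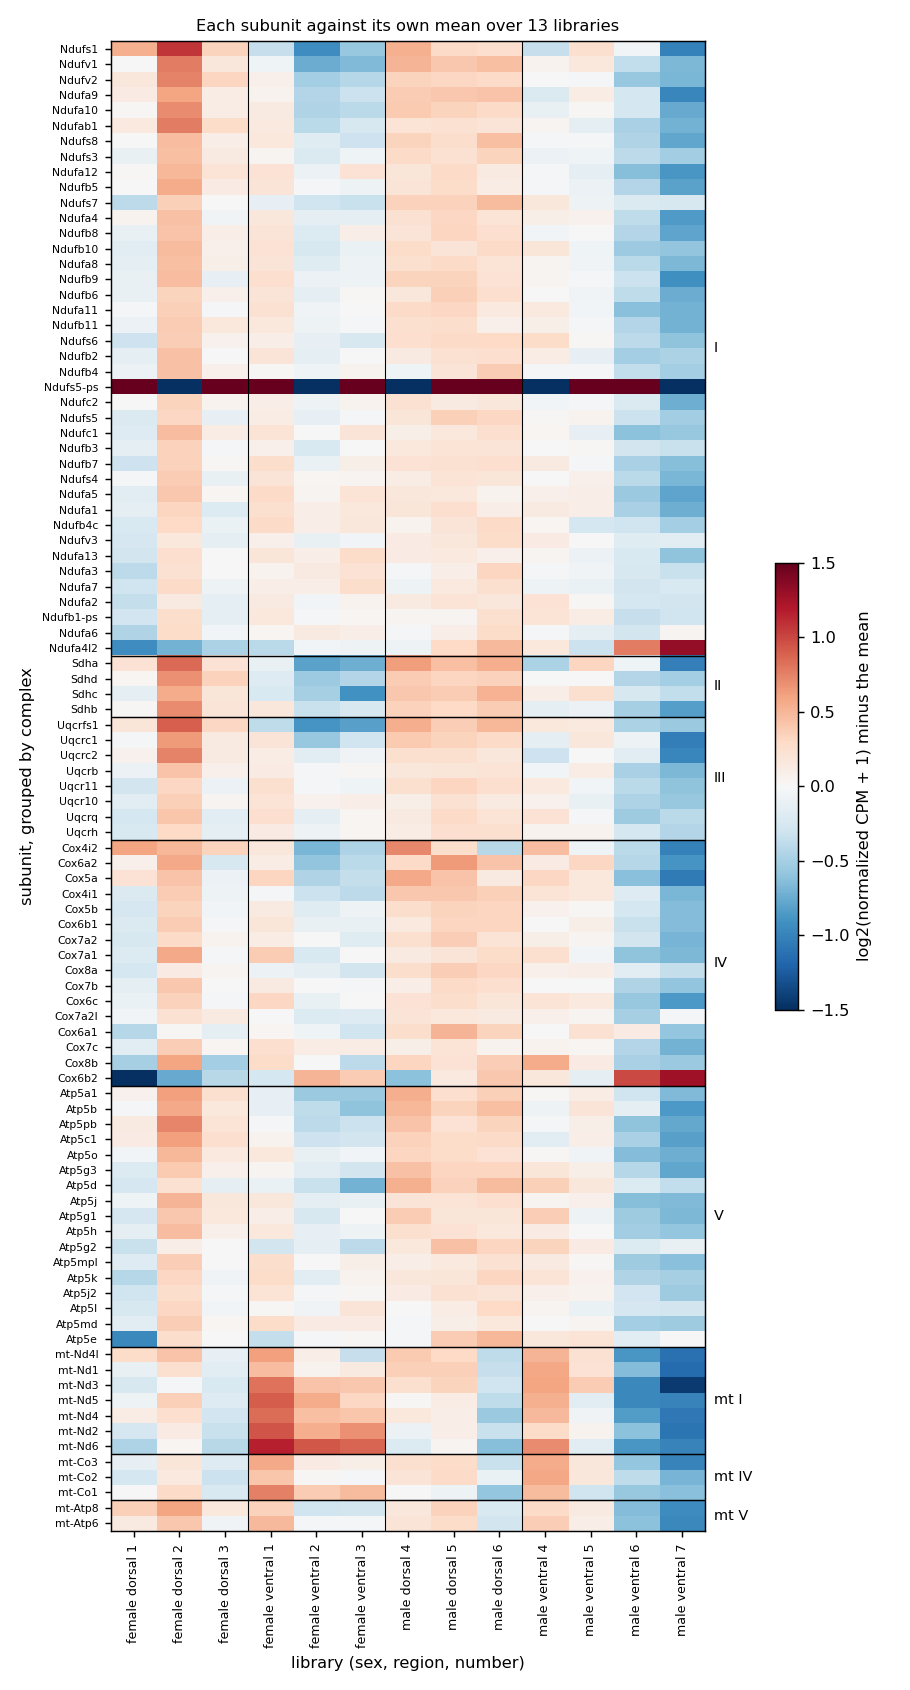
Heat map of the members, all but 1 of complex I, grouped by complex, in the 13 libraries of settled region, coloured by log2 of normalized CPM + 1 minus the member's mean over these libraries, from -1.5 (blue) to 1.5 (red), with values beyond drawn at the end of the scale. Most nuclear members are blue in male ventral libraries 6 and 7 and red in female dorsal library 2, mt-Nd2 and mt-Nd6 are red in the 3 female ventral libraries, and Ndufs5-ps switches between both ends.

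In male hearts no member was called by limma, as no gene of the table was (0%). With the replicate block 62 genes of the table were higher and 14 lower, and again no member was called. At an unadjusted p under 0.05, 51 of the 86 nuclear members were lower and none higher, against 7.12% of all genes lower and 6.84% higher, and none of the 12 mitochondrial members passed. The quasi-likelihood count test of edgeR and voom likewise called no member. Of the nuclear members 2 of 86 lay above 0, against 52.9% of all genes, with a median of -0.48 against 0.03 over all genes. For 58 of the 86 every ventral library was under every dorsal one, against 7.82% of all genes, and none was above (6.18% of all genes). Sdha had the largest fall in value, at 1497, 1320 and 1410 in dorsal and 693, 1210, 921 and 475 in ventral libraries (-0.85, SE 0.28, adjusted p = 0.297). Sdhb followed within complex II with -0.73 (SE 0.21, adjusted p = 0.285). The 7 core subunits of complex I had a median of -0.63 and the other 34 nuclear members one of -0.46. Medians by complex were -0.49 for complex I, -0.66 for complex II, -0.48 for complex III, -0.47 for complex IV and -0.46 for complex V. Cox6b2 and Ndufa4l2 were the members above 0, with 0.60 (adjusted p = 0.487) and 0.24 (adjusted p = 0.761).

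The mitochondrial members all lay below 0 in males, with a median of -0.29 and overlapping groups for each. mt-Nd6 measured 414, 492 and 306 in male dorsal and 779, 428, 259.5 and 237 in male ventral libraries, so ventral library 4 was higher than every dorsal library and ventral libraries 6 and 7 were lower (-0.07, SE 0.37, adjusted p = 0.949). With the replicate block, in which ventral library 7 has no partner, the median of the mitochondrial members was -0.06.

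Over both sexes, with sex as a covariate, 20 nuclear members were lower and 1 higher ventrally (24.4%), against 18.9% of all genes, 9.06% lower and 9.8% higher. All 4 members of complex II were lower, at -0.91 for Sdha (adjusted p = 0.0101), -0.66 for Sdhd (adjusted p = 0.00793), -0.61 for Sdhc (adjusted p = 0.0141) and -0.60 for Sdhb (adjusted p = 0.0204). All 7 nuclear core subunits of complex I were lower (median -0.63), led by Ndufs1 at -0.93 (SE 0.20, adjusted p = 0.00943), against 3 of the other 34 (Ndufa9, Ndufa10 and Ndufab1, median of the 34 -0.28). In complex III Uqcrfs1 (-0.89, SE 0.17, adjusted p = 0.00745) and Uqcrc2 were lower. In complex V the alpha, beta and gamma subunits of F1, Atp5a1, Atp5b and Atp5c1, were lower (median -0.63), together with the stalk subunit Atp5pb and none of the other 13. No nuclear member of complex IV was lower, and Cox6b2 was higher (0.86, SE 0.28, adjusted p = 0.0473). The median over the 86 members was -0.30 with 2 above 0 (52.7% of all genes), and 6 members did not overlap between all ventral and all dorsal libraries, each lower ventrally, against 2.17% of all genes lower and 1.22% higher. None of the 12 mitochondrial members was called by limma, edgeR or voom, with a median of 0.06. At p under 0.05 before adjustment 0 of them passed, against 34.5% of all genes.

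Where the number was entered as a replicate block, 13 nuclear members were called over both sexes, 12 lower and 1 higher. The calls lost were Sdhb (adjusted p = 0.0551), Atp5b (0.0602), Ndufa10 (0.0514), Ndufab1 (0.0539), Ndufs3 (0.0949), Ndufs7 (0.116), Ndufs8 (0.0666) and Uqcrc2 (0.0953). The count was 12 without female dorsal library 2 or female ventral library 2 and 36, all lower, after adjustment for GC content and length. Over all genes the main fit called 1545 higher and 1429 lower. Without these libraries it was 705 and 724, and 750 and 807, in the order named. The adjustment gave 1019 higher and 1716 lower, so lower calls rose over all genes too. Cox6b2 was called in 10 of 27 alternatives.

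The change of a nuclear member went with the length of its transcript. Across the 86 nuclear members Spearman's rank correlation between length and regional change was -0.73 in females and -0.52 in males, a description across genes of shared libraries. Over all genes tested it was 0.10 in females and 0.07 in males. The 29 shortest members (319 to 576.5 bases) had a female median of 0.07, the 29 in the middle (586 to 934 bases) one of -0.13, and the 28 longest (971 to 2900 bases) one of -0.51, and all 9 lower calls were among the longest. All genes in the same length ranges had female medians of 0.28, 0.10 and -0.11, with 2.51%, 5.43% and 16.3% called lower. In males the member medians were -0.41, -0.49 and -0.59, and those of all genes in the same ranges were 0.00, -0.03 and 0.01. The 4 members of complex II and 6 of the 7 nuclear core subunits of complex I are in the longest group, so role and length cannot be told apart here. Ndufs1 and Uqcrfs1 stayed called with the GC and length trend removed. That trend was fitted over all genes and not within the members, so it does not separate role from length.

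**Figure D4:**
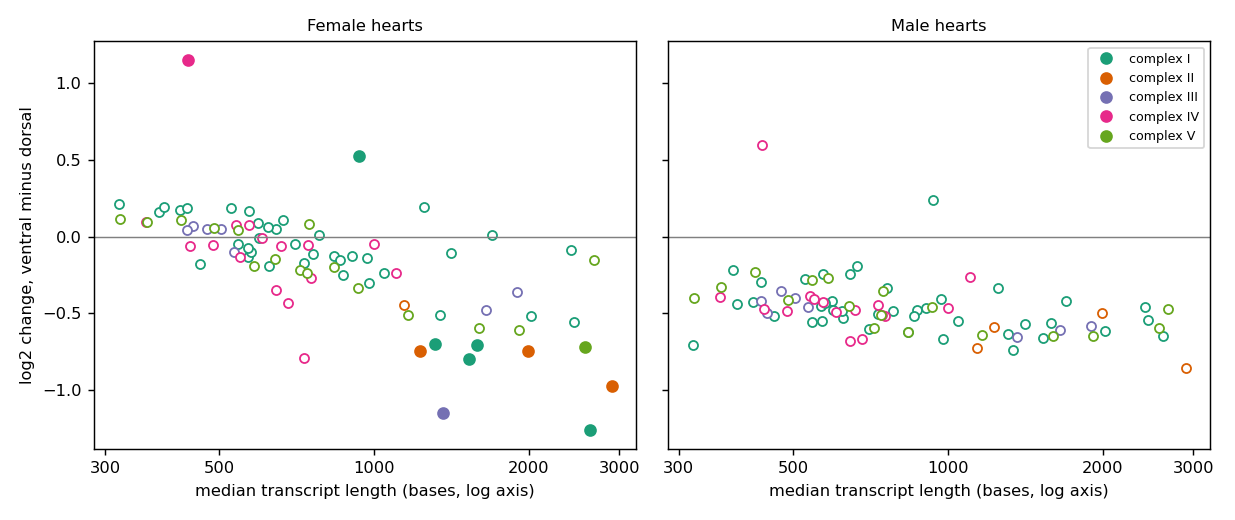
Ventral minus dorsal log2 change of normalized CPM + 1 of each nuclear member against transcript length in bases (log axis), in female and in male hearts, coloured by complex and filled where called by limma. The rank correlation is -0.73 in females and -0.52 in males, and the 9 female members called lower are 971 bases or longer.

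Tissue-specific isoforms were read as shares of each pair per kilobase. Cox6a2, the isoform of heart and skeletal muscle, made up 39.1%, 40.1% and 29.8% of the Cox6a pair in female dorsal and 32.4%, 23.9% and 29.6% in female ventral libraries, which overlapped. In males the values were 31.6%, 33.2% and 32.6% dorsally and 33.2%, 32.4%, 23.7% and 27.0% ventrally. Over the 14 libraries the muscle isoform Cox7a1 made up 33.3% to 43.3% of Cox7a1 and Cox7a2, and the muscle isoform Cox8b 18.5% to 31.7% of the Cox8 pair. Cox4i2 made up 0.368% to 1.16% of the Cox4 pair. The regional change of Cox6a2 was -0.43 in females (adjusted p = 0.208), that of Cox7a1 -0.06 (adjusted p = 0.861) and that of Cox8b 0.10 (adjusted p = 0.830). None of the ubiquitous partners Cox4i1, Cox6a1, Cox6b1, Cox7a2, Cox7a2l and Cox8a was called in females, against 27.8% of all genes. In males none was called either, but no gene of the table was (0%). Over both sexes Cox4i1 and Cox8a were each called lower in 2 of 27 alternatives and Cox6a1 in 1. Atp5g3, the largest source of the c ring of complex V here, held 55.5% to 64.3% of the Atp5g trio, and Atp5g1 and Atp5g2 were not called in any main fit. Over both sexes Atp5g2 was called lower in 2 of 27 alternatives.

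The shares of Cox6b2 and Ndufa4l2 were small. Cox6b2 was 0.479%, 0.656% and 1.12% of its pair in female dorsal and 1.08%, 2.29% and 2.10% in female ventral libraries, which overlapped, and at most 5.62%, in male ventral library 7. Ndufa4l2 was 3.64%, 3.28% and 5.33% in female dorsal, 4.81%, 7.49% and 7.25% in female ventral, 5.77%, 6.98% and 8.41% in male dorsal and 7.34%, 5.45%, 14.4% and 25.4% in male ventral libraries. The library with the highest share in both cases also had the highest sum of epicardial markers, at 6463 normalized CPM, and the lowest of cardiomyocyte markers, at 17489. It also had the highest macrophage and erythroid sums (559.8 and 291) and the lowest of blood endothelium (170.3). The part of these cell types was not tested.

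**Figure D5:**
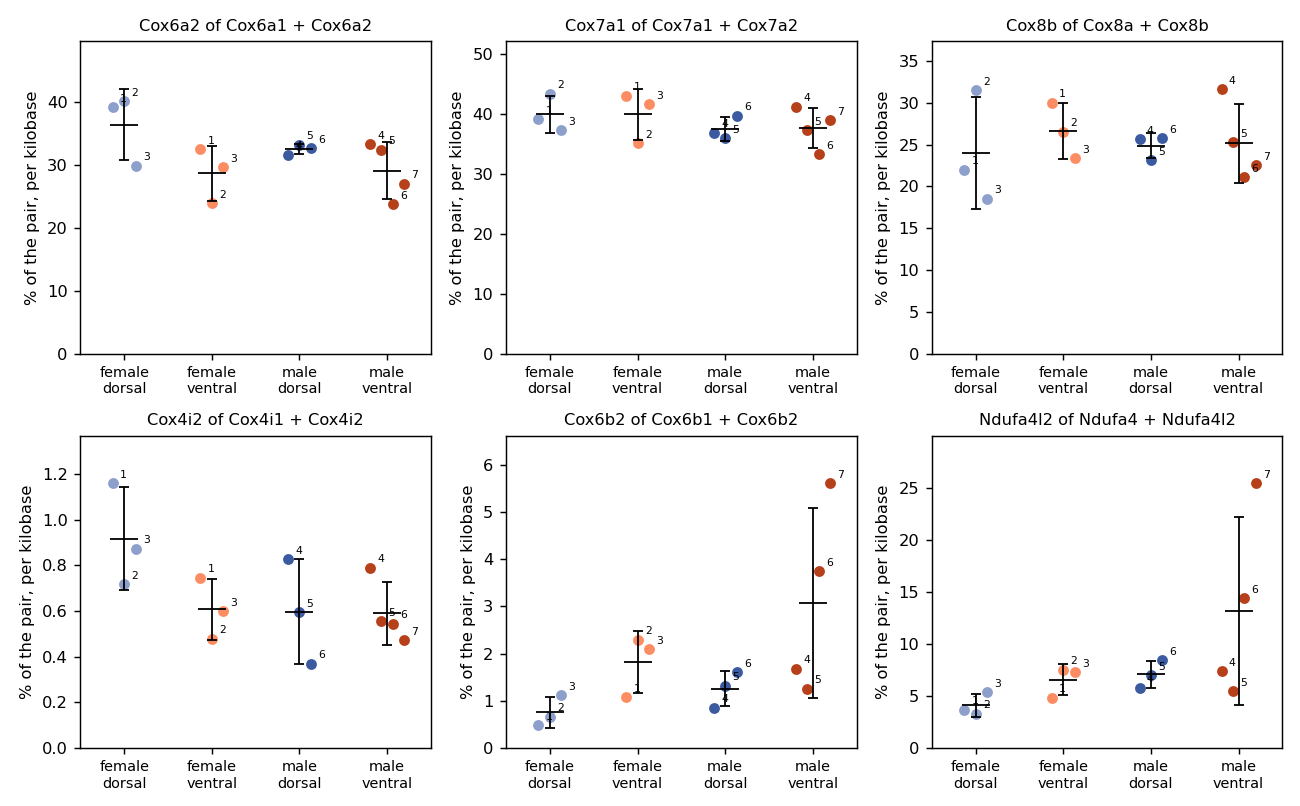
Share of 1 isoform of each of 6 pairs, in percent of the summed level per kilobase, by sex and region, with 1 numbered point per library, the group mean as a line and the SD as a bar. Cox6a2 holds 23.7% to 40.1% and Cox4i2 0.368% to 1.16% of their pairs, and Ndufa4l2 ranges from 3.28% to 25.4%.

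Between the sexes, with region as a covariate, 1 of 86 nuclear members was called, against 10.9% of all genes (4.4% higher in males, 6.54% higher in females). Ndufa4l2 was higher in males, at 110, 143 and 163 in dorsal and 129, 92.3, 198 and 291 in ventral libraries. Its change was 0.79 (SE 0.21, adjusted p = 0.0257), although the sexes overlapped. This fit takes the ventral and dorsal libraries of one number as independent, so its p-values may be too small. With libraries of one number averaged, 280 genes were higher and 664 lower in males, against 694 and 1032 in the main fit, and Ndufa4l2 was not called. The call was lost in 7 of 26 alternatives, which were without female dorsal library 1, female ventral library 1, male dorsal library 5 or 6 or male ventral library 6, with libraries of one number averaged, and after adjustment for GC content and length, and 2 nuclear members were called without male ventral library 7. Atp5g2 changed by 0.34 (adjusted p = 0.0635), and the median of the nuclear members was -0.04 against 0.03 over all genes. Of the mitochondrial members 1 of 12 lay higher in males (53.4% of all genes), with a median of -0.32 and none called by limma, edgeR or voom. An unadjusted p under 0.05 was reached by 5 of them, all lower in males, against 13% of all genes, with mt-Nd6 at -0.70 (adjusted p = 0.133) and mt-Co1 at -0.53 (adjusted p = 0.122). Epicardial markers were higher in males for 6 of 10.

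The regional change itself was compared between the sexes in a fit of 4 groups, and no member was called by limma, edgeR or voom, against 2.73% of all genes by limma. At an unadjusted p under 0.05, 4 nuclear and 2 mitochondrial members were lower in males, against 7.41% of all genes. The nuclear members had a median difference of -0.34, with 11 of 86 above 0, and the mitochondrial ones of -0.59, with 1 of 12 above 0, against -0.02 and 48.7% above 0 over all genes. For mt-Nd6 the difference was -1.34 (SE 0.47, adjusted p = 0.168), for mt-Nd2 -1.12 (adjusted p = 0.179) and for mt-Nd3 -1.16 (adjusted p = 0.337). With the replicate block mt-Nd6 was called (-1.12, adjusted p = 0.0480), and it was called without male ventral library 4 as well. The median of the core subunits of complex I was 0.06, that of complex II 0.14 and that of the other nuclear members of complex I -0.39. The falls of Ndufs1, Uqcrfs1 and Sdha in females were not shown to differ from those in males (differences of 0.62, 0.49 and 0.12, adjusted p = 0.459, 0.496 and 0.918).

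The genes that build and feed the complexes were counted from lists chosen for this report. Of 39 assembly factors 15 were lower and 1 higher ventrally in females (median change -0.52), and 14 were lower over both sexes (median -0.41). Among all genes 13.3% were lower and 14.5% higher in females and 9.06% lower over both sexes, the shares against which this and the next lists are read. The female count of 16 was 8 without dorsal library 2, 7 without ventral library 2 and 9 without ventral library 3. The count over both sexes was 8 with the replicate block or without female dorsal library 2, and 9 without female ventral library 2 or 3. In each of these fits the counts over all genes were also smaller than in the main fit. Atpaf1, a chaperone of the F1 part, and Cox11, which helps insert copper into complex IV, fell by 1.46 and 1.49 in females (adjusted p = 0.00151 and 0.00185). In males Atpaf1 changed by -0.20 (adjusted p = 0.595) and Cox11 by 0.57 (adjusted p = 0.384). The difference between the sexes was 2.07 for Cox11 (adjusted p = 0.00353), which was called in every alternative run, and 1.26 for Atpaf1 (adjusted p = 0.0173), which was lost without female dorsal library 2 or 3 or female ventral library 2. Sdhaf1, a factor of complex II, was called for that difference too (1.31, adjusted p = 0.0405), but in 11 of its 27 alternatives only.

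Of 10 genes of electron carriers and exchange 3 were lower and 1 higher in females (13.3% and 14.5% of all genes), and 7 were lower over both sexes (9.06%). The pore protein Vdac3 was lower in females (-0.70, adjusted p = 0.00925), a call lost without ventral library 2. The calls of the ADP/ATP carrier Slc25a5 (-0.70, adjusted p = 0.0437) and of Vdac2 (-0.51, adjusted p = 0.0498) were lost with the replicate block, and the female count of 4 was 0 without ventral library 2. It was 2 without dorsal library 2 or ventral library 3, and 1 without dorsal library 3. Over both sexes Cyc1, cytochrome c1 of complex III, which the choice by name left out, was lower (-0.67, adjusted p = 0.0161). The count of 7 was 4 without female dorsal library 2. Of 16 genes of mitochondrial biogenesis and transcription 5 were lower in females (13.3% of all genes) and 5 over both sexes (9.06%). The coactivator Ppargc1a changed by -0.69 in females (adjusted p = 0.00596), a call held in every alternative run, and the nuclear receptor Esrrg by -1.20 (adjusted p = 0.0123), a call lost without dorsal library 2, where the female count was 3. Tfam, which packages and transcribes mitochondrial DNA, changed by -0.45 over both sexes (adjusted p = 0.0156, lost with the replicate block). No gene of these lists was called in males by limma without the block.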

How the data were processed

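Poly(A) RNA of 14 pools was sequenced as single reads of 60 bases. The authors trimmed adapters with cutadapt, quantified genes with RSEM (version 1.3.1 by the submitters' processing notes, another version in the paper) on GRCm38 and normalized with limma. The deposited signal is reads plus an offset of 0.5 over an effective library size, a normalized CPM in the text. Multiplying back gave whole reads for 100.0% of the values, within 0.02 reads. Libraries of one group differed by 35 to 229 times the sampling noise (chi-square per degree of freedom), so none was a repeat of another. Assignment by strand is not given in the sources used here.

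All tests were two-sided and were made with lmFit and trended eBayes of limma 3.58.1 (R 4.3.3) on log2 of the signal plus 1, over genes reaching 1 in at least 3 libraries of the fit, with Benjamini-Hochberg adjustment over all genes tested and calls under 0.05. The pseudocount understates changes of low genes. The fits were regions within each sex, regions with sex as covariate, sexes with region as covariate, and 4 groups for the difference between the sexes. The script was tested on simulated data. Lengths, positions and shared windows came from GENCODE M21, which held 15877 of the genes (99.9%) and is not the annotation release the authors counted on.

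Members and lists were chosen with earlier results of these data known. Named were all mitochondrial members, paralogue pairs, a set of core subunits, the 3 largest called changes in each direction per comparison and the highest member of each complex per kilobase; other names follow the calls of a complex or a list. As alternatives the pseudocount was set to 0.1, the filter was dropped or replaced by a mean of at least 10, and scaling was by median of ratios, quantiles or the non-mitochondrial sum. Others were eBayes without trend, edgeR 4.0.16 on recovered reads, removal of the GC and length trend (splines 4.3.3, 5 degrees of freedom), each library left out, the replicate block, the unsettled library on either side, numbers averaged for the sexes and, added after seeing the data, voom. Ventral and dorsal libraries sharing a number deviated together over 15772 genes. In females the correlations were 0.187 (number 1), 0.169 (number 2) and 0.27 (number 3). In males they were 0.427 (number 4), 0.175 (number 5) and 0.351 (number 6). Across unequal numbers they ran from -0.251 to 0.0374 in females and from -0.369 to 0.295 in males. The value of 0.295, between male ventral library 7 and male dorsal library 6, exceeded all same-number values except 0.427 and 0.351. The numbers were taken to pair the libraries, which remains an assumption, since no source says what a number marks. The values of 1 member of complex I are not reported here on their own, although it enters the counts, medians and sums.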

Additional observations from a re-analysis of the deposited data

Results flagged for a closer look

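The male library numbered 7 whose labels conflict on region entered no comparison. Its summed normalized CPM was 56363 over the nuclear members and 27963 over the mitochondrial members. Of the 98 members, 91 lay in the range of the male ventral libraries and 17 in that of the male dorsal libraries, with some in both, and 0 lay above or below both ranges. The ventral range comes from 4 libraries and was wider, with nuclear sums of 37438 to 61377, against 71871 to 72295 in 3 dorsal libraries. A wider range holds more values, so these counts do not tell the region of the library. The share over all genes was not counted. Among 121 values screened in the 4 male ventral libraries, 0 stood beyond the limit set for a lone library. The part of its region in these values was not tested.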

How the results depend on the processing

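Main counts of called nuclear members were 11 in females, 21 over both sexes and 1 between the sexes. In females eBayes without trend called 4 nuclear members, and over all genes 1904 higher and 1467 lower. Quantile normalization gave a mitochondrial median of 0.10 in place of 0.41. Of the nuclear calls in females 2 of 11 were higher, against 1 of 14 with quantile normalization and 0 of 14 with the GC and length trend removed. Over all genes these fits called 2089, 1923 and 1527 higher and 1918, 1912 and 1904 lower, in the order named. Over both sexes the GC and length removal called 36 nuclear and 1 mitochondrial member, and the replicate block 13 nuclear members. Over all genes the removal called 1019 higher and 1716 lower, and the block 1230 higher and 1004 lower. The replicate block together with that removal called 1 mitochondrial member, and over all genes 819 higher and 1197 lower. Between the sexes the nuclear count was 2 with the filter on a mean of 10, 0 with the GC and length removal, 3 with the unsettled library as ventral and 0 with libraries of one number averaged. Over all genes these settings called 617, 469, 839 and 280 higher in males, in the order named. They called 934, 892, 1173 and 664 higher in females. For the difference between the sexes the replicate block called 1 mitochondrial member, and with the GC and length removal added the nuclear median difference was -0.064 in place of -0.34. Over all genes the block alone called 443 more ventral in males and 361 more ventral in females. Leaving out 1 library gave 2 to 16 nuclear calls in females, 12 to 23 over both sexes and 0 to 2 between the sexes. It gave 0 to 1 mitochondrial calls for the difference between the sexes. Over all genes the female counts then ran from 1039 to 1952 higher and from 1055 to 1893 lower. Those over both sexes ran from 705 to 1943 higher and from 724 to 1703 lower. Between the sexes they ran from 471 to 812 higher in males and from 818 to 1047 higher in females. For the difference between the sexes they ran from 210 to 349 more ventral in males and from 36 to 113 more ventral in females. The replicate block changed no call of members other than those given in the report. Among the other named genes it also removed Atpaf1 and Slc25a4 over both sexes and added Ckmt1 for the difference between the sexes. Of 7323 values of named genes under the alternatives 0 calls reversed, 240 were lost and 63 gained. Except where a setting tests fewer samples or genes, the cause was not tested. Over all genes and both sexes, 1545 were higher and 1429 lower, against 1829 and 1049 with rescaling to the non-mitochondrial sum and 1019 and 1716 with the GC and length removal. A floor of 3 reads lay at 0.135 to 0.253 normalized CPM per library.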

Other observations

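The genes that supply electrons to the chain were counted as well. Of the 16 genes of the citric acid cycle and pyruvate dehydrogenase 9 were lower ventrally in females and 15 over both sexes, with medians of -0.78 and -0.70, against 13.3% and 9.06% of all genes lower. None of the 16 lay above 0 in either comparison, against 50.7% and 52.7% of all genes. Dlat and Pdhb, components of pyruvate dehydrogenase, changed by -1.55 and -1.31 in females (adjusted p = 0.00239 and 0.00309 by limma), and Idh3a, a subunit of isocitrate dehydrogenase, by -1.38 (adjusted p = 0.00287). The summed level of the 16 genes was 9337 to 13590 normalized CPM in female dorsal and 5429 to 7507 in female ventral libraries, and 10094 to 11675 against 5036 to 9032 in males, with no overlap in either sex. Of the 16 genes of fatty acid oxidation 9 were lower and 1 higher in females (median -0.74; 13.3% and 14.5% of all genes), and 11 were lower over both sexes (median -0.65; 9.06% of all genes). In males 1 of them was lower with the replicate block and 0 without it. The female count of 10 was 5 without ventral library 2 or 3. Etfdh, which passes electrons of fatty acid oxidation to the chain, changed by -1.21 in females (adjusted p = 0.00305) and Cpt1b, the muscle carnitine palmitoyltransferase, by -1.22 (adjusted p = 0.0136), whereas its paralogue Cpt1a was higher (0.72, adjusted p = 0.0366), a call lost without dorsal library 1 or 3 or ventral library 2 or 3. The sum of the cardiomyocyte markers had a ventral mean 0.765 times the dorsal one in females and 0.679 times in males, and its part in these values was not tested.

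Ndufs5-ps, an annotated processed pseudogene of a complex I subunit, was singled out after its values were seen. It measured 91.8, 0.354 and 89.6 normalized CPM in female dorsal, 119, 0.470 and 99.2 in female ventral, 0.5, 182 and 104 in male dorsal and 0.793, 169, 69.7 and 4.74 in male ventral libraries. Both libraries of number 2 and both of number 4 lay under 1, and those of numbers 1, 3, 5 and 6 lay at 69.7 or more. The unsettled male library 7 stood at 0.599, beside 4.74 in male ventral library 7. Low and high levels thus went with the number of the library and not with region.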
